A study of Mus musculus with 7 samples.

Results

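The miRNAs encoded inside the mouse Hox clusters were followed through testis culture. They were taken as every listed mature miRNA whose name begins with miR-10a-, miR-10b-, miR-196a, miR-196b or miR-615-, and 5 of the 331 listed miRNAs met this: mmu-miR-10b-5p, mmu-miR-10a-5p, mmu-miR-196a-5p, mmu-miR-196b-5p and mmu-miR-615-3p. They are written without the species prefix from here on. The mice were of the outbred strain CD1, and testis small RNA was sequenced in 7 libraries, 1 for each of 7 conditions. T6 and T10 were prepuberal testes taken directly from mice of 6.5 and 10.5 days post-partum (dpp), and TAD was testis of an adult of 2 months. T6-12K and T6-12A were explants of 6.5 dpp testes kept for 12 days at the boundary of medium and air on agarose, at 34 °C in air with 5% CO2. Their media held KSR, a serum replacement, or AlbuMAX I, a lipid-rich bovine albumin. T10-12K and T10-12A were the corresponding cultures of 10.5 dpp testes. No animal carried a modified gene, and the labels give the starting ages rounded to 6 and 10 days.

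Hox genes encode transcription factors that give cells their position along the body axis, and they lie in 4 clusters, HoxA to HoxD. Several miRNA genes sit between or inside them. A miRNA is a short RNA that lowers the output of mRNAs that pair with it, mainly through its seed, bases 2 to 8 counted from the 5′ end. The miR-196 seed recognizes Hox mRNAs such as Hoxb8, and the miR-10 genes lie beside the Hox4 genes. miR-10a and miR-10b thus come from separate clusters but carry a common seed, and so do miR-196a and miR-196b.

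The mature sequences, from the RefSeq annotation of GRCm38.p6, are shown because the pairs that share a seed are told apart by a single base. Capitals mark the seed.
miR-10b-5p: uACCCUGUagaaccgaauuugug
miR-10a-5p: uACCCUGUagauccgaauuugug
miR-196a-5p: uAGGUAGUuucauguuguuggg
miR-196b-5p: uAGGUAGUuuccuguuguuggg
miR-615-3p: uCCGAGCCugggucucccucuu
Counted from the 5′ end, miR-10a-5p and miR-10b-5p differed by U12A, with the miR-10a-5p base first. miR-196a-5p and miR-196b-5p differed by A12C, with the miR-196a-5p base first. Both differences lie outside the seed. A RefSeq sequence was matched to 288 of the 331 listed miRNAs, and among these no other miRNA carried either seed, and none carried the miR-615-3p seed CCGAGCC. The closest listed relatives of miR-10b-5p outside the pair are miR-100-5p, miR-99a-5p and miR-99b-5p. For miR-10a-5p, miR-100-5p and miR-99a-5p are followed by miR-125b-5p, at 6 edits and at least as near as miR-99b-5p. miR-100-5p is 3 edits from miR-10a-5p and 4 from miR-10b-5p, and its seed is ACCCGUA:
miR-100-5p: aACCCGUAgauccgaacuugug

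Positions are those of GRCm38 (mm10), the build named in the submitters' processing notes, with the gene models of GENCODE mouse release M21. The Mir10a hairpin lies at chr11:96317165-96317274 on the plus strand, between Hoxb5 and Hoxb4 and 0.993 kb from Hoxb4. Mir10b lies at chr2:74726070-74726137 on the plus strand, in introns of Hoxd4 and Hoxd3. miR-196a-5p has 2 hairpins that give an identical mature sequence, so the reads of the loci could not be separated. Mir196a-1 is at chr11:96265164-96265265 (plus strand), between Hoxb13 and Hoxb9. Mir196a-2 is at chr15:102973350-102973434 (plus strand), between Hoxc10 and Hoxc9 and in an intron of a long Hoxc5 model. Mir196b is at chr6:52230081-52230165 (minus strand), in an exon of a Hoxa9 model and 1.03 kb from Hoxa10. Mir615 is at chr15:103014910-103015001 (plus strand), in an intron of Hoxc5. The Hox clusters therefore hold hairpins of the same seed in different clusters, and 2 hairpins of different seeds in each of HoxB and HoxC.

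**Figure D1:**
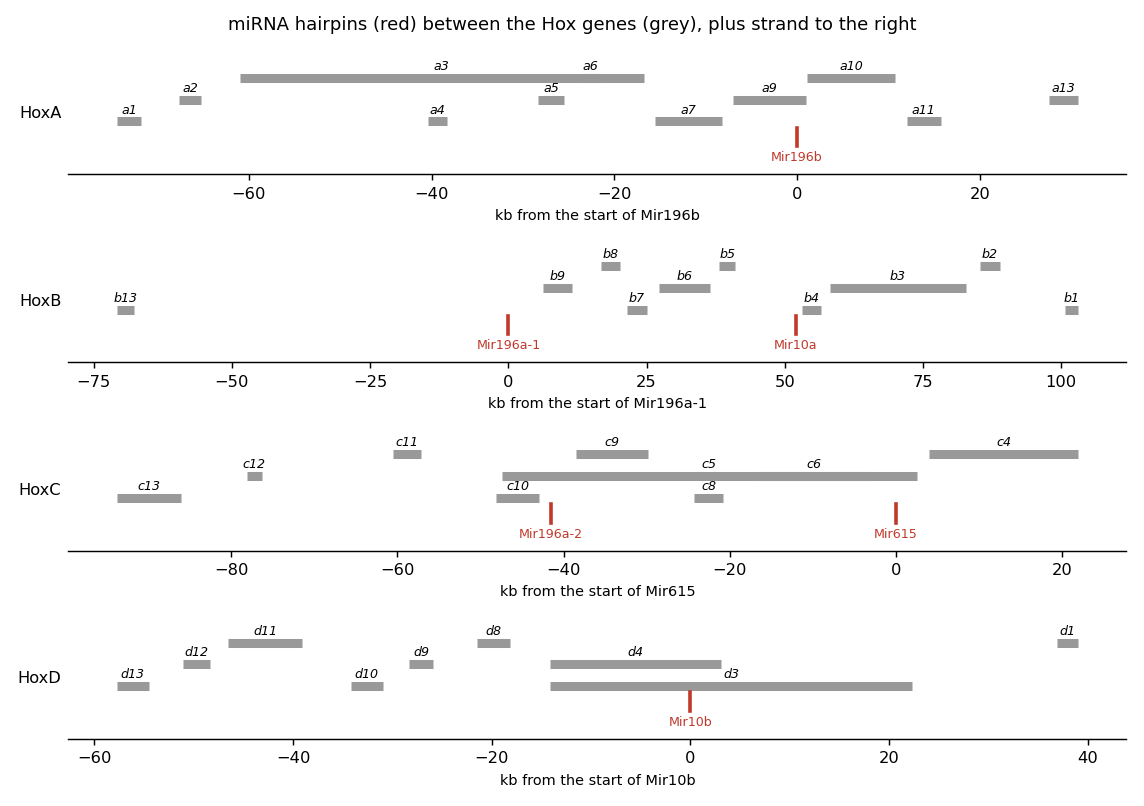
Each row is 1 Hox cluster, with distance in kb from the start of 1 hairpin on the x axis, Hox genes as grey bars (staggered in height only for legibility) and miRNA hairpins as red ticks. HoxB holds Mir196a-1 and Mir10a, HoxC holds Mir196a-2 and Mir615, HoxA holds Mir196b and HoxD holds Mir10b.

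The deposited values were read numbers divided by 1 factor per library, and dividing by the worth of 1 read gave back 1628770 reads on listed miRNAs in TAD and between 7075528 and 13397407 in the other 6 libraries. Levels are given as CPM, the reads of a miRNA per 1000000 reads on listed miRNAs of that library. No condition had a replicate library, so the comparisons of single libraries carry no test, and their 95% intervals cover counting error only. A fit that takes the 2 ages as replicates of culture follows them. A miRNA was called higher or lower at a 2-fold difference. Most listed miRNAs had lower CPM in culture, and the median log2 ratio over all tested miRNAs was -1.24 for T6-12K against T6, -0.63 for T6-12A against T6, -0.77 for T10-12K against T10 and -0.79 for T10-12A against T10. Member ratios are therefore also set against these medians. The testis labels were checked against marker miRNAs. The gonadal miR-202-5p was listed in all 7 libraries, at 86.2 to 228 CPM, and its list (miR-202-5p and miR-202-3p) summed to 93.7 to 234 CPM. The meiotic germ cell list (miR-34b-5p, miR-34c-5p, miR-449a-5p, miR-449c-5p) summed to 72.7 CPM in T6, 162 CPM in T10, 611 to 1950 CPM in the cultures and 25465 CPM in TAD, and its part in the results below was not tested. In bulk testis RNA, fewer cells of a type and less of a miRNA per cell cannot be told apart.

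miR-10b-5p was the most abundant listed miRNA in every library. It took 46.0% of the listed reads in T6 and 44.6% in T10. With KSR it took 54.4% in T6-12K and 48.9% in T10-12K, with AlbuMAX I 52.0% in T6-12A and 50.6% in T10-12A. In TAD it took 31.2%. The 4 cultured libraries were all above T6 and T10, and TAD was below all others. Because 1 miRNA filled about as many reads as all others together, its share moved the share left to every other miRNA. This remainder was 45.6% of the reads in T6-12K and 68.8% in TAD. The smooth muscle and mesenchyme list summed to 106268 CPM in T6 and 259014 CPM in TAD, nearly all of it miR-143-3p, while its other 4 miRNAs were each lower in TAD than in T6, miR-199a-3p at 713 against 1932 CPM. miR-143-3p took 10.4% of the reads in T6, 14.6% in T10, 15.7 to 21.3% in the cultures and 25.8% in TAD. As a result there were 4.43 reads of miR-10b-5p for each read of miR-143-3p in T6, 3.05 in T10, 2.45 to 3.32 in the cultures and 1.21 in TAD, an order that no library scaling can alter.

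miR-10a-5p, with the same seed, was far lower in every library. Its level was 4330 CPM in T6 and 4690 CPM in T10. With KSR it was 28387 CPM in T6-12K and 5818 CPM in T10-12K, with AlbuMAX I 4137 CPM in T6-12A and 4745 CPM in T10-12A. The adult library had 7185 CPM. T6-12K stood apart from the other 6 libraries, and TAD came next. In T6-12K it was the miRNA of rank 4, against ranks 18 to 23 elsewhere. T10-12A and T10 were neighbours in this order whose difference did not exceed counting error.

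miR-196a-5p was highest before culture and lowest in the adult. It had 170 CPM in T6 and 121 CPM in T10. The KSR cultures had 67.2 CPM (T6-12K) and 61.8 CPM (T10-12K), the AlbuMAX I cultures 93.9 CPM (T6-12A) and 47.3 CPM (T10-12A). TAD had 11.7 CPM, from 19 reads. The cultured libraries lay between the prepuberal testes and the adult. T6-12K and T10-12K, next to each other in this order, were not apart beyond counting error.

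miR-196b-5p followed another course. It had 28.7 CPM in T6 (384 reads), 23.5 CPM in T10 (315 reads) and 27.0 CPM in TAD (44 reads). The KSR cultures had 125 CPM (T6-12K, 1240 reads) and 19.2 CPM (T10-12K, 136 reads). The AlbuMAX I cultures had 7.04 CPM (T6-12A, 76 reads) and 15.1 CPM (T10-12A, 128 reads). T6-12K was highest and T6-12A lowest, and neither interval reached that of its neighbour in the order. From T6 through TAD, T10 and T10-12K to T10-12A, no neighbours differed beyond counting error.

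miR-615-3p was the scarcest of the 5 miRNAs in all 7 libraries. Its level was 20.3 CPM in T6 and 22.7 CPM in T10. With KSR it was 9.66 CPM in T6-12K and 9.89 CPM in T10-12K, with AlbuMAX I 4.82 CPM in T6-12A and 4.38 CPM in T10-12A, from 37 to 304 reads in these 6 libraries. In TAD it was listed at 0. Every culture was below both prepuberal testes, and within the cultures both AlbuMAX I libraries were below both KSR libraries.

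**Figure D2:**
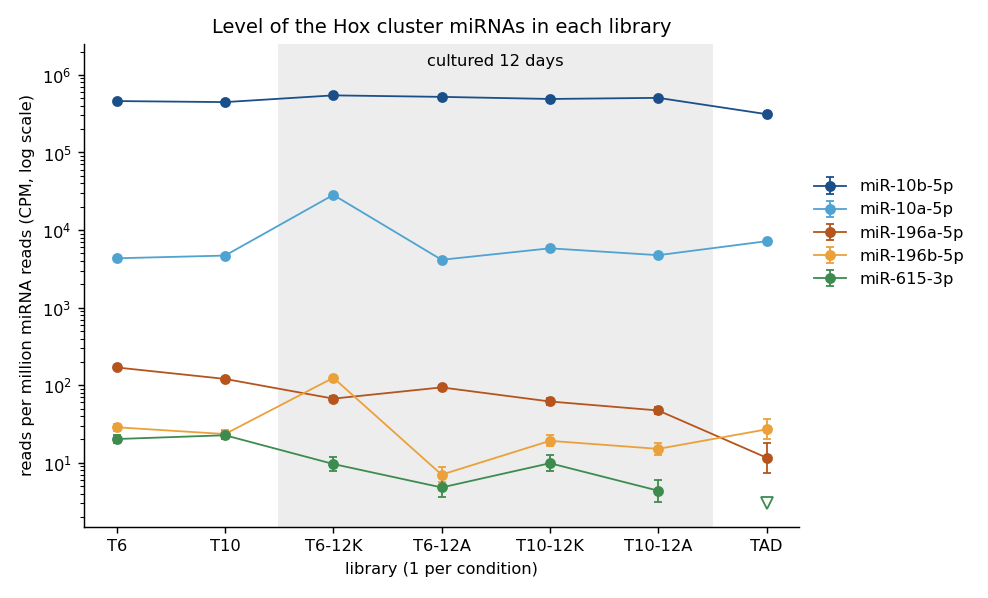
Level of each Hox cluster miRNA (CPM, log scale) in the 7 libraries, 1 per condition, with 95% Wilson intervals for counting error and the cultured libraries shaded. The open triangle marks miR-615-3p in TAD, listed at 0 and drawn at the CPM of 5 reads, and miR-10a-5p and miR-196b-5p peak together in T6-12K.

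Before culture, T10 was compared with T6 to see how these miRNAs differed over the first days of spermatogenesis. None of the 5 was called higher, against 10.3% of all tested miRNAs, and none lower, against 3.55%. miR-196a-5p had the widest difference, with a log2 ratio of -0.49 (95% interval -0.58 to -0.40), and miR-196b-5p had -0.29 (-0.51 to -0.07). miR-615-3p stood at 0.16 with an interval from -0.08 to 0.40, which spans no difference. miR-10a-5p stood at 0.12 and miR-10b-5p at -0.05, and the latter changed sign, to 0.03, with the values as deposited. With the values as deposited, 36 miRNAs were called higher and 6 lower, in place of 32 and 11.

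In the adult against the mean of T6 and T10, 2 of the 5 miRNAs were called lower, miR-196a-5p and miR-615-3p, where 37.6% of all tested miRNAs were lower. None was called higher, against 19.7%. miR-196a-5p was 12.4-fold lower, a log2 ratio of -3.64, and only 11 of the 319 tested miRNAs were lower still. Against the prepuberal testes singly, its interval was -4.60 to -3.22 for TAD over T6. miR-615-3p was listed at 0 in TAD, where no value under 5 reads is listed. Its observed level was therefore at least 7.00-fold lower, a bound that does not allow for counting error. miR-10b-5p had a log2 ratio of -0.54, close to the median of -0.51 over all tested miRNAs. As deposited it was at -1.24, beside a median of -1.21, and was then also called lower. miR-10a-5p was at 0.67, or 1.18 above that median, and turned to -0.03 as deposited. miR-196b-5p was level in CPM, at 0.05, and also turned negative as deposited, at -0.65. Median-of-ratios factors, the values as deposited and miR-10b-5p left out of the total all kept miR-196a-5p and miR-615-3p as called lower. The split over all miRNAs moved from 63 higher and 120 lower to 28 and 172 as deposited. Reads compared directly, which leave depth uncorrected, gave 16 and 297, with all 5 Hox cluster miRNAs lower. TAD was the shallowest library, with 1628770 reads, so that setting could not test these calls.

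T6-12K was the culture in which the Hox cluster miRNAs diverged. Against T6, miR-10a-5p and miR-196b-5p were called higher, while 9.15% of all tested miRNAs were, and miR-196a-5p and miR-615-3p were called lower, as were 59.2% of all. For miR-10a-5p the log2 ratio was 2.71 (2.70 to 2.73), or 6.56-fold, and 11 of the 306 tested miRNAs were above it. miR-196b-5p was 4.34-fold higher, at 2.12 (1.95 to 2.29), with 16 above it. miR-196a-5p, at -1.33, and miR-615-3p, at -1.07, lay within 0.2 of the median of all miRNAs on the log2 scale, -0.09 below and 0.17 above it. miR-10b-5p was only 1.18-fold higher in CPM but 1.49 above the median in log2 units. With median-of-ratios factors, which equalize the typical miRNA between libraries, miR-10a-5p (3.70), miR-196b-5p (3.11) and miR-10b-5p (1.23) were all called higher, and miR-196a-5p (-0.35) and miR-615-3p (-0.08) were not called. miR-615-3p was also inside 2-fold as deposited, at -0.74, whereas miR-10a-5p and miR-196b-5p were called higher under every scaling tried. Median-of-ratios factors moved the calls over all miRNAs from 28 higher and 181 lower to 54 and 77. Compared directly as reads, miR-10b-5p was lower in T6-12K, at -0.18.

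T6-12A, the AlbuMAX I culture of the same age, did not share those higher levels. Its miR-10a-5p was near T6, with a log2 ratio of -0.07 in CPM that turned to 0.37 with median-of-ratios factors. miR-196b-5p was 4.08-fold lower than in T6, at -2.03 (-2.40 to -1.67), and miR-615-3p 4.21-fold lower, at -2.07 (-2.53 to -1.64). These 2 calls stand beside 37.7% of all tested miRNAs called lower, and none of the 5 was called higher, against 11.6%. They were 1.40 and 1.44 below the median of all miRNAs in log2 units, and all scalings kept them as called lower. miR-196a-5p was at -0.85 and passed 2-fold only with reads compared directly, at -1.16. Median-of-ratios factors gave 50 higher and 82 lower miRNAs in place of 36 and 117.

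In both cultures from 10.5 dpp, miR-615-3p was called lower and miR-10a-5p and miR-196b-5p stayed inside 2-fold in CPM. In T10-12K against T10, miR-615-3p was the 1 miRNA called lower, at -1.20 (-1.59 to -0.82), where 40.1% of all tested miRNAs were lower, and none was higher, against 7.96%. That call was lost with median-of-ratios factors, at -0.65. miR-196a-5p was just inside 2-fold, at -0.97, and passed it as deposited, at -1.30. miR-10a-5p was at 0.31, or 1.08 above the median, and turned to -0.02 as deposited. In T10-12A against T10, miR-196a-5p (-1.35) and miR-615-3p (-2.37, 5.18-fold lower) were called lower, beside 41.5% of all, and none was higher, against 9.49%. miR-196a-5p was not called with median-of-ratios factors, at -0.78, whereas miR-615-3p was, at -1.80. The splits over all miRNAs moved with that scaling from 25 higher and 126 lower to 43 and 74 in T10-12K, and from 30 and 131 to 46 and 85 in T10-12A.

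All cultures together were set against both prepuberal testes. miR-10b-5p was above T6 and T10 in all 4 cultured libraries in CPM, as were 10.9% of listed miRNAs, but was not so as deposited, and was below them with reads compared directly. miR-10a-5p was above them in all 4 with median-of-ratios factors or with miR-10b-5p left out of the total, but not in CPM. miR-196a-5p and miR-615-3p were below T6 and T10 in all 4, as were 57.7% of listed miRNAs. With median-of-ratios factors 74 miRNAs were above and 92 below, in place of 36 and 191, and miR-196a-5p was no longer among those below. miR-615-3p was below in all 4 cultures under every scaling tried, of which reads compared directly leave the lower depth of the cultures uncorrected. With median-of-ratios factors, however, T6-12K was below T6 by a log2 ratio of only -0.08, from 96 and 271 reads. A difference of that size is within counting error. T6 and T10 served as the reference of all these comparisons, so the comparisons are not independent of each other.

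The 6 prepuberal and cultured libraries were then fitted together with limma, with age (6.5 or 10.5 dpp) and treatment (none, KSR, AlbuMAX I) as additive terms on log2 CPM. The ages served as replicates, which left 2 residual degrees of freedom, and any difference between the ages in their response entered the error of this fit. miR-615-3p was lower in the AlbuMAX I cultures than at the start, by -2.22 on the log2 scale (95% interval -3.15 to -1.29, limma adjusted p = 0.00306), and lower in both ages. It was the 1 miRNA of the 5 called in that contrast, where 26.6% of 323 tested miRNAs were called lower and 9.29% higher. The limma adjusted p was 0.00338 as deposited, 0.00668 with miR-10b-5p left out of the total and 0.0141 with median-of-ratios factors. Reads compared directly gave 0.000161, but they leave the lower depth of the cultures uncorrected. Leaving out 1 library left 1 treatment with a single library, so only effect sizes are given for those fits. For this contrast they were -2.34 to -2.11. The median difference over all 323 miRNAs in this fit was -0.77 with AlbuMAX I and -1.01 with KSR. In the KSR cultures miR-615-3p was thus near the median, at -1.13 (-2.06 to -0.20, limma adjusted p = 0.0487). Of all miRNAs 39% were called lower there and 6.81% higher. The call of miR-615-3p with KSR ended in 3 of the 4 other scalings, with a limma adjusted p of 0.0509 as deposited and 0.38 with median-of-ratios factors. Only reads compared directly kept it. Without each of the 6 libraries in turn the difference was -1.24 to -1.03, and no call is given for those fits. Median-of-ratios factors changed the calls over all miRNAs from 22 higher and 126 lower to 36 and 42 with KSR, and from 30 and 86 to 43 and 56 with AlbuMAX I.

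The other Hox cluster miRNAs did not pass this test in CPM. miR-196a-5p was at -1.15 with KSR (limma adjusted p = 0.0554) and at -1.10 with AlbuMAX I (limma adjusted p = 0.0759). The medians over all miRNAs were -1.01 and -0.77. miR-10a-5p was at 1.51 with KSR (0.12 to 2.90, limma adjusted p = 0.0680), and miR-196b-5p at 0.91 (-0.78 to 2.60, limma adjusted p = 0.319). Between supplements no miRNA was called higher or lower by limma in CPM, 0% in each direction, and 36 of 323, with 3 of the 5, had an unadjusted p under 0.05. For miR-196b-5p the difference of AlbuMAX I from KSR was -2.25 (-3.94 to -0.56, limma adjusted p = 0.393), for miR-10a-5p -1.54 (-2.93 to -0.15, limma adjusted p = 0.414) and for miR-615-3p -1.09 (-2.02 to -0.16, limma adjusted p = 0.414). As deposited, miR-196a-5p passed in both culture contrasts (limma adjusted p = 0.0498 and 0.0472). Fits without 1 library, where 1 treatment rests on a single library, are given as effect sizes only. Without T10-12K, T6-12K alone stood for KSR. Between supplements, miR-196b-5p was at -3.80 without T10-12K and at -0.69 without T6-12K, and miR-10a-5p at -2.76 and -0.31. With KSR, miR-10a-5p was at 2.73 without T10-12K and at 0.29 without T6-12K, and miR-196b-5p at 2.47 and -0.64. In the same 2 fits miR-196a-5p was at -1.46 and -0.84. With AlbuMAX I, miR-196b-5p was at -2.63 without T10-12A and at -0.03 without T6-12A, and miR-196a-5p at -0.76 and -1.44.

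**Figure D3:**
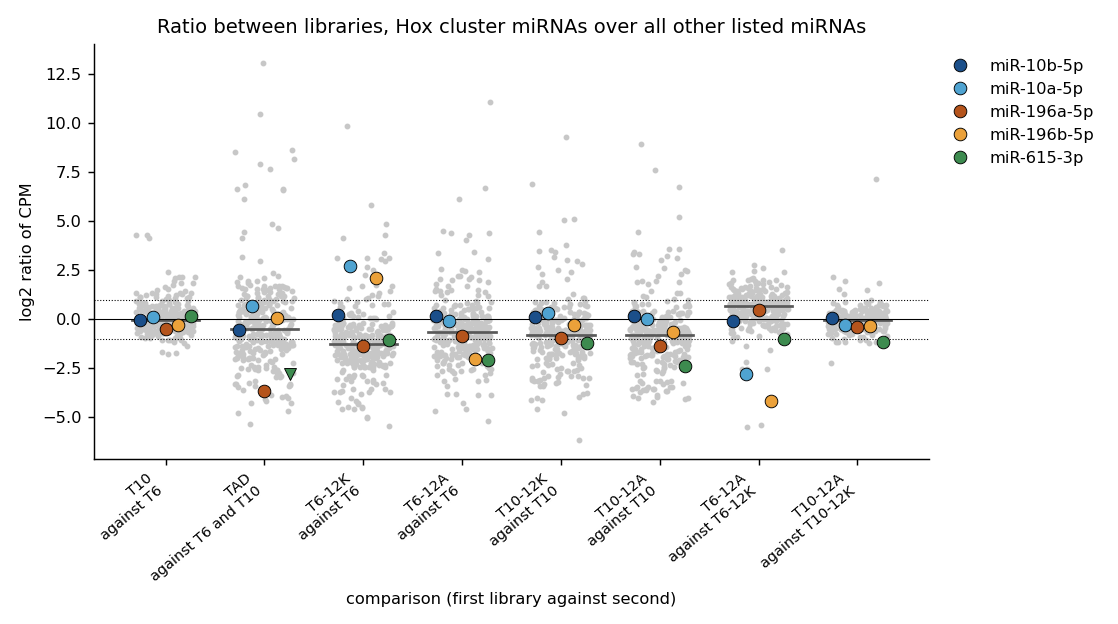
log2 ratio of CPM in each of the 8 comparisons, with the 5 Hox cluster miRNAs as coloured points, other tested miRNAs as small grey points, their median as a grey bar and 2-fold as dotted lines; the triangle is miR-615-3p at its bound in TAD. miR-10a-5p and miR-196b-5p stand at 2.71 and 2.12 in T6-12K against T6 and at -2.78 and -4.15 in T6-12A against T6-12K.

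The supplements were compared directly at each age. In the 6.5 dpp cultures, 3 of the 5 miRNAs were called lower with AlbuMAX I than with KSR, where 4.46% of all tested miRNAs were, and none was higher, against 27.1%. miR-196b-5p was 17.7-fold lower, at -4.15 (-4.50 to -3.81), and only 2 of 269 tested miRNAs were lower still. miR-10a-5p was 6.86-fold lower, at -2.78 (-2.79 to -2.76), with 3 below it. miR-615-3p was 2.01-fold lower (log2 interval -1.52 to -0.50), just past the 2-fold limit, from 52 and 96 reads. It was no longer called with reads compared directly, at -0.88, or with 1 or 10 CPM added, at -0.87 and -0.41. miR-196a-5p went the other way in CPM, at 0.48, but was at -0.07 with median-of-ratios factors. Over all miRNAs that scaling gave 28 higher and 29 lower in place of 73 and 12. In the 10.5 dpp cultures, miR-615-3p alone of the 5 was called lower with AlbuMAX I, at -1.18 (-1.79 to -0.58), beside 3.63% of all tested miRNAs, and none was higher, against 2.82%. miR-10a-5p was at -0.29 and miR-196b-5p at -0.34, the latter with an interval from -0.70 to 0.01 that includes no difference. The interval of miR-615-3p was wide, as it rests on 37 and 70 reads, and the call was lost with reads compared directly, where 16 miRNAs were higher and 1 lower in place of 7 and 9.

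T6-12K was the single library in which any of the 5 miRNAs was at least 2-fold over every other library. This held for miR-196b-5p, 4.34-fold over the next library (T6), and miR-10a-5p, 3.95-fold over the next (TAD). Only 4 of the 331 listed miRNAs, 1.21%, met it, or 7 with median-of-ratios factors and 5 as deposited or with reads compared directly. In CPM the others were miR-141-3p (8.18-fold) and miR-205-5p (at least 6.82-fold, since TAD, listed at 0, was set to 5 reads). miR-10b-5p was 1.05-fold over the next library, miR-615-3p at 0.426 of the highest other level and miR-196a-5p at 0.397. The place of miR-10a-5p and miR-196b-5p was kept under every scaling tried. miR-141-3p and miR-205-5p are markers of epithelium, and of the 6 miRNAs on the epithelium list 5 are listed here. miR-141-3p had 126 CPM in T6-12K and 0 to 15.3 CPM elsewhere, and miR-205-5p had 20.9 CPM and 0 to 2.16 CPM. The other 3 listed ones were not highest there. In CPM the whole list summed to 305 CPM in T6-12K and 104 to 401 CPM in the other libraries. That order depends on the scaling, and the sum of T6-12K was the highest with median-of-ratios factors or as deposited. In CPM, T6-12K also had the lowest summed gonad list, 93.7 CPM against 135 to 234 CPM. The median log2 ratio of all tested miRNAs to T6 was -1.24 in that library. With median-of-ratios factors or as deposited, the gonad sum of T6-12K was not the lowest, as TAD was below it. Among the cultures T6-12K had the lowest germ cell list, 611 CPM against 1486 to 1950 CPM. The part of epithelial, gonadal or germ cells in the levels of miR-10a-5p and miR-196b-5p was not tested. The blood markers miR-451a and miR-144-3p were listed at 0 in all 4 cultures and summed to 6.75 to 13.7 CPM in the uncultured libraries.

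**Figure D4:**
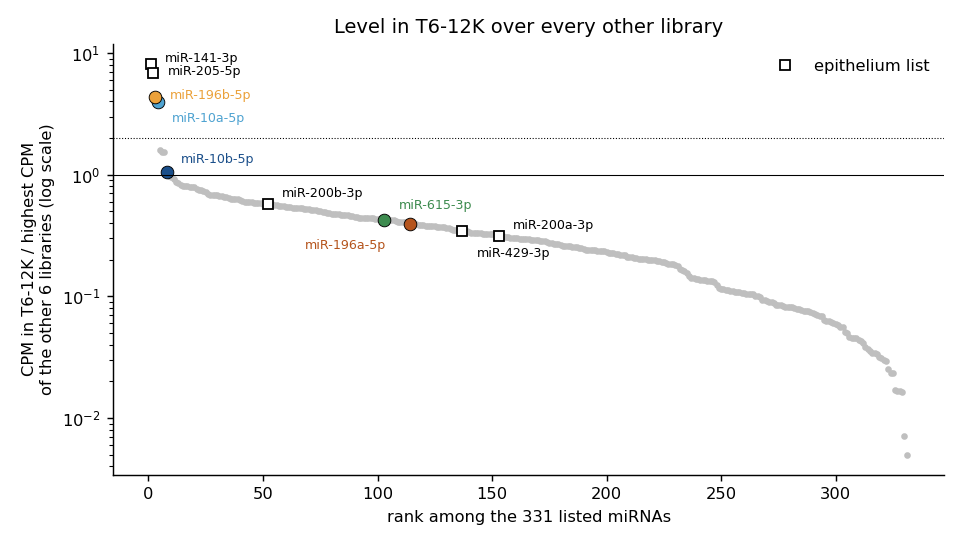
CPM in T6-12K divided by the highest CPM of the other 6 libraries (log scale, values at 0 set to the lowest listed read number), for the 331 listed miRNAs ranked by that fold; coloured points are the Hox cluster miRNAs and open squares the epithelium list. The dotted line is 2-fold, passed by miR-141-3p, miR-205-5p, miR-196b-5p and miR-10a-5p.

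Within a pair that shares a seed, the share of 1 miRNA in the reads of both does not depend on how libraries are scaled. miR-10a-5p made up 0.933% of the miR-10 reads in T6 and 1.04% in T10. With KSR it made up 4.96% (4.94 to 4.98) in T6-12K and 1.18% in T10-12K, with AlbuMAX I 0.789% in T6-12A and 0.930% in T10-12A, and in the adult 2.25% (2.21 to 2.29). The pair was thus dominated by miR-10b-5p in every library, with T6-12K and TAD apart from the rest. Since the pair differs at a single base, misread or misassigned miR-10b-5p reads could be listed as miR-10a-5p. If all miR-10a-5p reads of T6-12A, the library with the lowest ratio, had arisen so, the same ratio would give 42974 of the 282010 miR-10a-5p reads in T6-12K, or 15.2%, and 34.5% in TAD, but 84.4% in T6.

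miR-196b-5p made up 14.5% (13.2 to 15.9) of the miR-196 reads in T6 and 16.3% (14.7 to 18.0) in T10. With KSR it made up 65.0% (62.8 to 67.1) in T6-12K and 23.7% (20.4 to 27.4) in T10-12K. With AlbuMAX I it made up 6.98% (5.61 to 8.65) in T6-12A and 24.2% (20.8 to 28.1) in T10-12A. The adult share was 69.8% (57.6 to 79.8). miR-196a-5p was the main miRNA of its seed in 5 libraries, and miR-196b-5p in T6-12K and TAD. The level of both together was 198 CPM in T6 and 144 CPM in T10, 192 CPM in T6-12K and 81.0 CPM in T10-12K, 101 CPM in T6-12A and 62.5 CPM in T10-12A, and 38.7 CPM in TAD. The summed CPM of the AGGUAGU seed in T6-12K was 0.969 of that in T6, with the other miRNA of the pair in the larger part. This ratio was 1.92 with median-of-ratios factors, 1.22 as deposited and 0.720 with reads compared directly. The TAD share rests on 63 reads and its interval overlaps that of T6-12K. This pair too differs at a single base, and T6-12A had the lowest ratio of miR-196b-5p to miR-196a-5p. If all miR-196b-5p reads of T6-12A were misassigned, the same ratio would give 44.3% of those in T6 and 38.5% in T10. It would give 24.1% in T10-12K and 23.4% in T10-12A, but 4.04% in T6-12K and 3.24% in TAD.

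**Figure D5:**
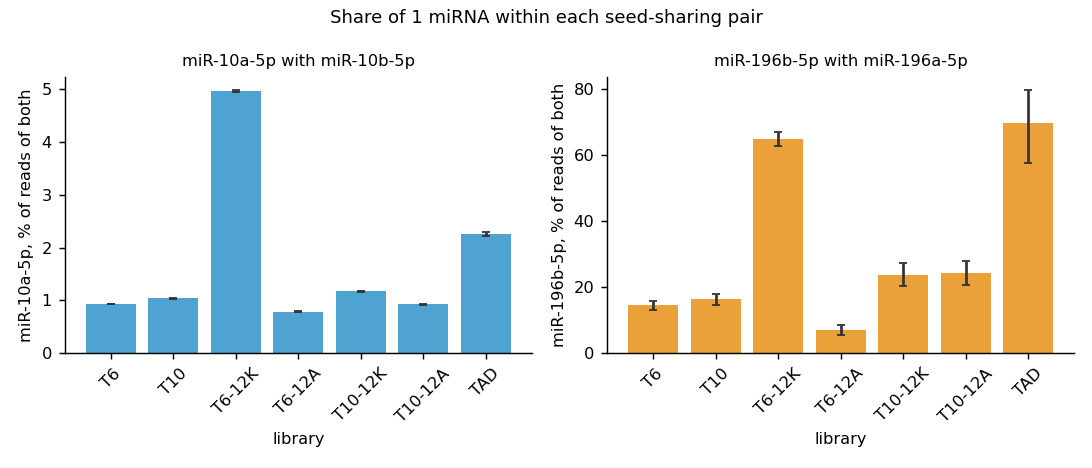
Share of miR-10a-5p in the reads of miR-10a-5p and miR-10b-5p (left, %), and of miR-196b-5p in the reads of miR-196a-5p and miR-196b-5p (right, %), per library with 95% Wilson intervals. T6-12K and TAD are highest in both, at 4.96% and 2.25% on the left and 65.0% and 69.8% on the right.

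The T6-12K peak was not shared by the 3 miRNAs measured as sequence relatives of miR-10. miR-99a-5p, miR-99b-5p and miR-100-5p summed to 37290 CPM in T6 and 32309 CPM in T10, 19784 CPM in T6-12K and 28516 CPM in T10-12K, 22816 CPM in T6-12A and 29274 CPM in T10-12A, and 10924 CPM in TAD. None of the 3 was highest in T6-12K. let-7a-5p, whose seed GAGGUAG overlaps that of miR-196 shifted by a base, had 7567 CPM in T6-12K and 8442 to 20544 CPM elsewhere.

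Profiles over the 7 libraries were compared by the root mean square difference of log2 CPM, each centred on its own mean. The search covered the 155 miRNAs with at least 50 reads in every library, without the Hox cluster miRNAs, which are compared with each other below. The 3 closest to miR-10b-5p were miR-125b-1-3p (0.22), miR-125b-5p (0.23) and miR-27b-3p (0.24), where the median of the miRNAs searched was 0.78. For miR-196b-5p the closest were miR-486b-5p (0.57) and miR-486a-5p (0.57), followed at a distance by miR-145a-5p (1.09). miR-486a-5p and miR-486b-5p, known from erythroid and muscle cells, were also the closest to miR-10a-5p, at 0.77, with miR-143-3p next at 0.78. Both had their highest level in T6-12K, 2554 and 2571 CPM, 1.52-fold and 1.54-fold over T6. Their levels were nearly equal in every library, such as 445 and 442 CPM in T6-12A, so they do not count as separate likenesses. For miR-196a-5p the closest were miR-127-3p (0.45), miR-434-3p (0.45) and miR-130a-3p (0.52). For miR-615-3p they were miR-127-3p (0.44), miR-434-3p (0.45) and miR-411-5p (0.57), with its TAD value set to 5 reads.

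Among the 5 miRNAs themselves, likeness did not follow the seed. miR-10a-5p and miR-196b-5p were the closest of the 10 pairs, at 0.57, and come from HoxB and HoxA. Both were highest in T6-12K, and the part of that library in their likeness was not tested. miR-196a-5p and miR-615-3p followed at 0.71, and HoxC holds Mir615 and a hairpin of miR-196a. HoxB holds Mir10a and the other hairpin of miR-196a, but miR-10a-5p and miR-196a-5p were far less alike, at 1.62. The pairs with a common seed were at 0.90 for miR-10a-5p and miR-10b-5p, and at 1.69 for miR-196a-5p and miR-196b-5p, the least alike of all pairs. These values are descriptions of 7 libraries that share their scaling, with no test, and miR-615-3p in TAD was again set to 5 reads.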

How the data were processed

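Small RNA of 7 libraries was analysed. The authors deposited, per mature miRNA and library, a signal, in a table of the series and in per-library tables. According to the methods, reads were trimmed, aligned with Bowtie to the genome (mm10) and to miRBase, and scarce miRNAs were discarded. The processing notes also name FastQC and HTSeq. The treatment of reads that fit several miRNAs is not given in the sources used here. Read counts had been assumed in the design, but the values were scaled, so the worth of 1 read (0.615 to 3.19) was estimated per library. After division, 100% of values under 10000 reads were whole within 0.1 read. The estimate was tested on simulated data.

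Reads were scaled to CPM of listed miRNAs. Values at 0 were set to the lowest listed read number of the library (5, or 7 in T10), and miRNAs needed 50 reads in 1 compared library. Calls were 2-fold. Intervals were Wilson for shares and exact binomial for ratios. No count model was run, and single libraries were compared without a test. After the data were seen, limma 3.58.1 in R 4.3.3 was added, on log2 CPM of the 6 prepuberal and cultured libraries with age and treatment as additive terms, 50 reads in 1 of them and Benjamini-Hochberg adjustment over all 323 miRNAs. Alternatives covered 4 scalings (median-of-ratios factors, values as deposited, miR-10b-5p left out of the total, reads compared directly), 1 or 10 CPM added, filters and thresholds. Reads compared directly are not corrected for library depth. The miRNAs and lists were chosen with earlier results of these data known. Named were every miRNA of the Hox cluster names, the 3 most alike in profile to each, relatives in sequence, marker lists (epithelium, smooth muscle and mesenchyme, meiotic germ cells, gonad, endothelium, blood) and miRNAs at least 4-fold over every other library in T6-12K. The endothelium list summed to 124 to 405 CPM, without a peak in T6-12K. Computations ran in Python 3.11.15 with scipy 1.17.1, pandas 2.3.3 and numpy 2.4.6, and plots used matplotlib 3.10.9.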

Additional observations from a re-analysis of the deposited data

Results flagged for a closer look

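The effect of AlbuMAX I against KSR had opposite signs at the 2 ages for miR-10b-5p and miR-196a-5p. For miR-196a-5p the log2 ratio was 0.481 at 6.5 dpp and -0.384 at 10.5 dpp, a difference of 0.865. For miR-10b-5p it was -0.0642 and 0.0477, a difference of -0.112. The signs were opposite in 3 of the 4 alternative scalings for each. These differences were not tested, as each age and supplement had 1 library. Of 280 miRNAs compared at both ages, 137, or 48.9%, also had opposite signs.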

How the results depend on the processing

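The number of Hox cluster miRNAs past 2-fold moved by over 1.5 times in 5 of the 8 comparisons under some alternative, changed by 1 in T6-12A against T6 and against T6-12K, and stayed at 0 in T10 against T6. In TAD against T6 and T10, 2 became 5 with reads compared directly and 0 with 50 reads required in every library. In T6-12K against T6, 4 became 2 at 4-fold and 3 with median-of-ratios factors, as deposited, with miR-10b-5p left out of the total, or with 1 or 10 CPM added. In T10-12K against T10, 1 became 0 with median-of-ratios factors, 10 CPM added or a 4-fold threshold, 2 as deposited or at 1.5-fold, and 3 with reads compared directly. In T10-12A against T10, 2 became 1 with median-of-ratios factors, 50 reads in every library or 4-fold. In T10-12A against T10-12K, 1 became 0 with reads compared directly, 10 CPM added, 50 reads in every library or 4-fold. The level in T6-12K over the highest other library moved with median-of-ratios factors to 6.73 for miR-10a-5p, 8.12 for miR-196b-5p, 0.786 for miR-196a-5p and 0.860 for miR-615-3p, and to 7.20 for miR-10a-5p as deposited. The causes were not tested. Without T6 or T10, the count stayed at 2 past 2-fold in TAD, and leaving out each culture in turn put 3 to 4, in place of 3, outside the range of T6 and T10 in the cultures kept. The sign changed under some scaling for 13 of the 40 member ratios, but for none of the 15 past 2-fold. Over all listed miRNAs, calls in T6-12K against T6 numbered 209, and 131 with median-of-ratios factors. In TAD they numbered 183, and 313 with reads compared directly. In T10-12K against T10 they numbered 151, and 250 with reads compared directly. With 10 CPM added they moved to 16 in T10 against T6, 135, 79, 85 and 88 in the cultures against their start (T6-12K, T6-12A, T10-12K, T10-12A), and 44 and 4 between supplements at 6.5 and 10.5 dpp. With 50 reads in every library they moved to 28 in T10 against T6, 72 in TAD, 136, 95, 83 and 90 in the cultures, and 5 between supplements at 10.5 dpp, where no filter gave 36. At 1.5-fold they were 98 in T10 against T6 and 167 and 54 between supplements, and at 4-fold 8 in T10 against T6, 74 in TAD, 94, 59, 63 and 76 in the cultures, and 20 and 3 between supplements. Depth limits miR-196a-5p and miR-615-3p in TAD most, with 19 and 0 reads. In the limma fit, chosen after seeing the data, the 1 Hox cluster miRNA called with KSR became 0 with median-of-ratios factors or miR-10b-5p left out and 2 with reads compared directly, and the 1 called with AlbuMAX I became 2 as deposited and 3 with reads compared directly. Leaving out 1 library left 1 treatment with a single library, so calls are not counted for those fits. In the full fit, 148, 116 and 0 of all miRNAs were called with KSR, with AlbuMAX I and between supplements. Over all miRNAs the KSR count was 78 with median-of-ratios factors, and with reads compared directly the counts were 248, 200 and 4. No paired analysis was possible because, with 1 library each, the conditions share only replicate number 1.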
